A study of Drosophila melanogaster with 9 samples.

Results

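The interior of the X chromosome of Drosophila melanogaster was examined in 2 lists of interacting regions from Hi-C, an assay that joins and sequences DNA ends lying close together in fixed nuclei. A member was a listed pair of 10 kb bins on X whose bins both start from 1020001 to 21430000, that is, outside the 1 Mb at each end of the arm. There were 7549 such pairs of 59303 in the list of heat-shocked cells (12.7%) and 4368 of 33978 in a second list (12.9%). The interior holds 2041 bins over 20.41 Mb. The cells were Kc167, a line established from embryos and given as female by the labels. They were grown at 25 °C, and the heat-shocked ones were held at 37 °C for 20 min before fixation with formaldehyde and digestion with HindIII.

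Both Hi-C libraries of heat-shocked cells carry labels that point to the first list, called the heat-shock list here, so it covers these 2 libraries together. No label used here gives a sample, treatment or temperature for the second list, called the companion list, and none was assumed. The other 7 libraries of the series, ChIP-seq and input, were not analysed here. The series is titled for a temperature-sensitive remodelling of chromosome domains. These lists bear on it only through which bins are paired, since domains were not measured here and the temperature behind the companion list is unknown here.

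In flies, the X is single in males and doubled in females, and in males a dosage compensation complex binds along it and raises the transcription of its genes. Female cells do not assemble that complex on the X. Interphase chromosomes fold into domains whose borders are rich in insulator proteins, and heat shock reduces the transcription of most genes while the heat-shock genes are switched on. The coordinates of the X begin at the telomere and end towards the centromere. The sources used here name no genome build, so positions are those of the deposited lists and no gene was assigned to a bin.

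Each pair carries the authors' score, which is -2 or below in every line, and a lower score is read here as a stronger pair. The base of the score is unknown, as is any common scale, so scores were used only to rank pairs within a list. Depth is unknown, since the lists give no reads, and a pair that is not listed may have been just short of the limit. There is 1 list of each kind and no replicate, so no test between the lists was possible. Intervals in brackets are exact 95% intervals for counting error alone, and they take pairs to be independent although neighbours are not.

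The X interior held more pairs in the heat-shock list, by a factor of 1.73 (1.66 to 1.79). That is 369.9 pairs per Mb in the heat-shock list, against 214 per Mb in its companion. In the heat-shock list 1735 bins (85.0%) had at least 1 partner, against 1622 (79.5%) in the companion list. A bin in use had a median of 5 partners in the heat-shock list, against 3 in its companion, with quartiles of 2 and 8 in the heat-shock list, against 2 and 6 in its companion. The pairs left out because a bin lay in an end of the arm numbered 885 in the heat-shock list, against 547 in its companion. Of these, 588 and 311 joined an end to the interior, a ratio of 1.89 (1.65 to 2.18), and 297 and 236 lay within or between the ends, a ratio of 1.26 (1.06 to 1.50). Counted over the whole X, the first bin inside, X:1020001-1030000, had 1 partner in each list, and X:1010001-1020000 just outside had 2 in the heat-shock list, against 0 in its companion. At the other limit X:21420001-21430000 inside had 4 and 6 partners, and X:21430001-21440000 outside had 3 and 1.

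Interior pairs of the heat-shock list were most in excess at middle distances and were fewer than those of the companion list at the very longest. Heat-shock pairs had a median distance between bins of 1.40 Mb (1.35 to 1.45 Mb), companion pairs one of 1.12 Mb (1.06 to 1.19 Mb). At more than 1 and up to 5 Mb pairs numbered 3780 in the heat-shock list, against 1629 in its companion, a ratio of 2.32 (2.19 to 2.46). They were 50.1% (48.9 to 51.2%) of the heat-shock list, against 37.3% (35.9 to 38.7%) of its companion. Over 200 kb to 1 Mb there were 2321 and 1598 pairs, a ratio of 1.45 (1.36 to 1.55). From 50 to 200 kb there were 482 and 383, which gives 1.26 (1.10 to 1.44). Both ratios lie below the 1.73 of the whole interior, so these pairs took a smaller share of the heat-shock list. The shares were 30.7% against 36.6% over 200 kb to 1 Mb, and 6.38% against 8.77% from 50 to 200 kb. Pairs up to 50 kb apart were few in both lists, 144 against 79, and their ratio of 1.82 (1.38 to 2.43) is the least precise. They were 1.91% of the heat-shock list, against 1.81% of its companion.

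Beyond 5 Mb the order of the lists in number of pairs depended on the distance, but their order as shares did not. Pairs over 5 to 10 Mb apart were 9.30% (8.65 to 9.98%) of the heat-shock list, against 11.1% (10.2 to 12.1%) of its companion. Those over 10 Mb apart were 1.59% (1.32 to 1.90%) and 4.44% (3.85 to 5.09%). Over 5 to 10 Mb there were 702 heat-shock pairs and 485 companion pairs, a ratio of 1.45 (1.29 to 1.63). Over 10 Mb there were 120 heat-shock pairs and 194 companion pairs. This ratio is 0.62 (0.49 to 0.78), in spite of the longer heat-shock list. The limit of 10 Mb was chosen after the values were seen. With the heat-shock list shortened to its 4368 strongest pairs, 66 of them lay over 10 Mb apart, against the same 194. Among the stronger 50% of each list the numbers were 54 in the heat-shock list, against 116 in its companion. These far pairs were spread over many bins, 206 in the heat-shock list, against 300 in its companion, and no bin had more than 10 of them in the heat-shock list or 5 in the companion list. The strongest far companion pair joined X:6470001-6480000 to X:16540001-16550000, 10.07 Mb apart, with a score of -35.4, and was not in the heat-shock list. The strongest far heat-shock pair, X:6750001-6760000 with X:20350001-20360000, spanned 13.6 Mb with a score of -21.1 and was in both lists.

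The number of possible bin pairs grows with distance, so the listed pairs were also set against it. Up to 50 kb, 1.77% of possible bin pairs were in the heat-shock list, against 0.969% in its companion. Over 200 kb to 1 Mb these shares were 1.46% and 1.01%, over 1 to 5 Mb 0.543% and 0.234%, and over 5 Mb 0.0693% and 0.0572%. Up to 1 Mb the share differed little between bands in either list, and beyond 1 Mb it was several times lower. The heat-shock share lay furthest above the companion share, as a ratio, over 1 to 5 Mb.

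**Figure D1:**
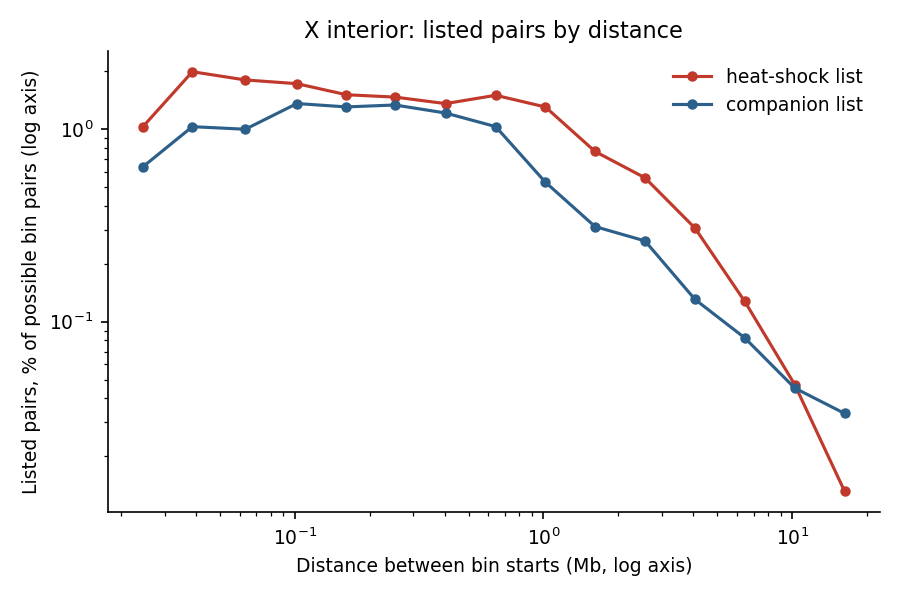
Share of all possible pairs of interior X bins that were listed (vertical log axis, in %) against the distance between bin starts (horizontal log axis, in Mb), for the heat-shock list (red) and the companion list (blue). The heat-shock curve lies above the companion curve up to about 10 Mb, with 0.543% against 0.234% of possible pairs over 1 to 5 Mb. At the last point, 12.91 to 20.5 Mb, it lies below, at 0.0131% against 0.0334%.

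Along the chromosome the interior was divided into 21 windows of 1 Mb from its first bin, the last of them 410 kb long. Every window was touched by more heat-shock than companion pairs, with ratios between 1.37 and 2.26 and a median of 1.72, and none of the 21 intervals reached down to 1. The heat-shock list is the longer one, with a ratio of 1.73 over the whole interior. A window is therefore to be read against 1.73 rather than against 1. The ratio was highest in X:2020001-3020000, with 591 heat-shock and 262 companion pairs, a ratio of 2.26 (1.95 to 2.62). It was followed by X:5020001-6020000 with 770 and 357 pairs, a ratio of 2.16 (1.90 to 2.45), and X:15020001-16020000 with 1026 and 477 pairs, a ratio of 2.15 (1.93 to 2.40). The lowest ratio was in X:12020001-13020000, where 725 heat-shock and 531 companion pairs gave 1.37 (1.22 to 1.53). Next came X:16020001-17020000 at 1.47 (1.29 to 1.68) and X:11020001-12020000 at 1.59 (1.41 to 1.79). A pair that spans windows counts in both, so the windows are not independent.

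Partners were most dense in windows on the centromere side of the middle of the arm. In the heat-shock list the mean number of partners per bin was highest in X:15020001-16020000, at 11.1, X:13020001-14020000, at 10.8, and X:19020001-20020000, at 10.2. In the companion list it was highest in X:13020001-14020000, at 6.78, X:14020001-15020000, at 5.85, and X:20020001-21020000, at 5.74. The sparsest heat-shock windows were X:18020001-19020000, at 4.51 partners per bin, X:1020001-2020000, at 4.55, and X:3020001-4020000, at 5.39. The same windows were sparsest in the companion list, at 2.68, 2.32 and 2.51. Single bins weighed on these means. In X:9020001-10020000 the richest bin alone accounted for 40.2% of the heat-shock pairs that touched the window and 21.6% of the companion pairs. The median bin had more heat-shock than companion partners in 19 windows and as many in 2, which were X:12020001-13020000 and X:18020001-19020000. This was not set against list length.

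Pairs confined to a single window took a smaller share of the heat-shock list. They were 1379 pairs (18.3%, 17.4 to 19.2%) of the heat-shock list, against 1076 (24.6%, 23.4 to 25.9%) of its companion. Pairs that reached 2 or more windows on were 48.5% (47.4 to 49.7%) and 43.6% (42.1 to 45.1%). In the 2 windows with most internal pairs the lists differed little or the companion list had more: X:14020001-15020000 had 182 in the heat-shock list, against 180 in its companion, and X:20020001-21020000 had 146 and 173. Among window pairs at least 2 windows apart, X:10020001-11020000 with X:13020001-14020000 came first in each list, with 295 heat-shock and 206 companion pairs. The next in the heat-shock list was X:15020001-16020000 with X:19020001-20020000, with 137 heat-shock and 44 companion pairs.

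**Figure D2:**
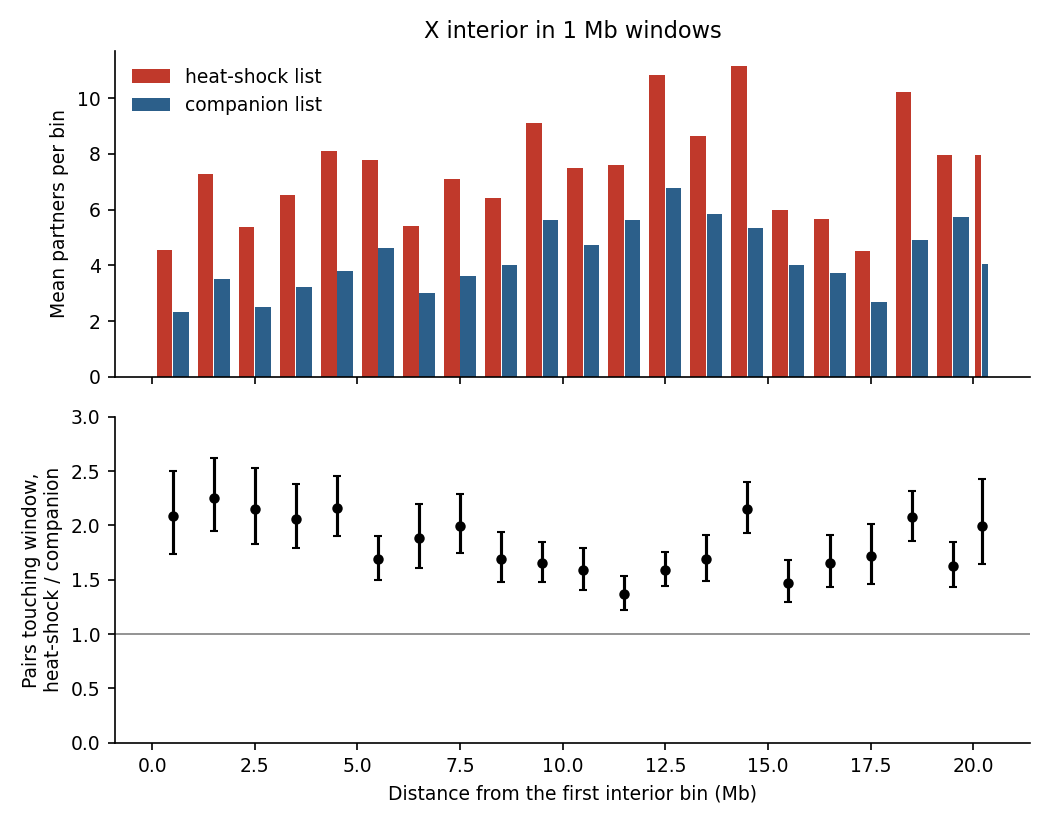
Top: mean number of partners per 10 kb bin in each window of the X interior, for the heat-shock list (red) and the companion list (blue); the horizontal axis is the distance from the first interior bin in Mb. Bottom: number of heat-shock pairs over number of companion pairs touching each window, with exact 95% intervals for counting error. All 21 lie above the grey line at 1, while the ratio over the whole interior is 1.73.

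**Figure D3:**
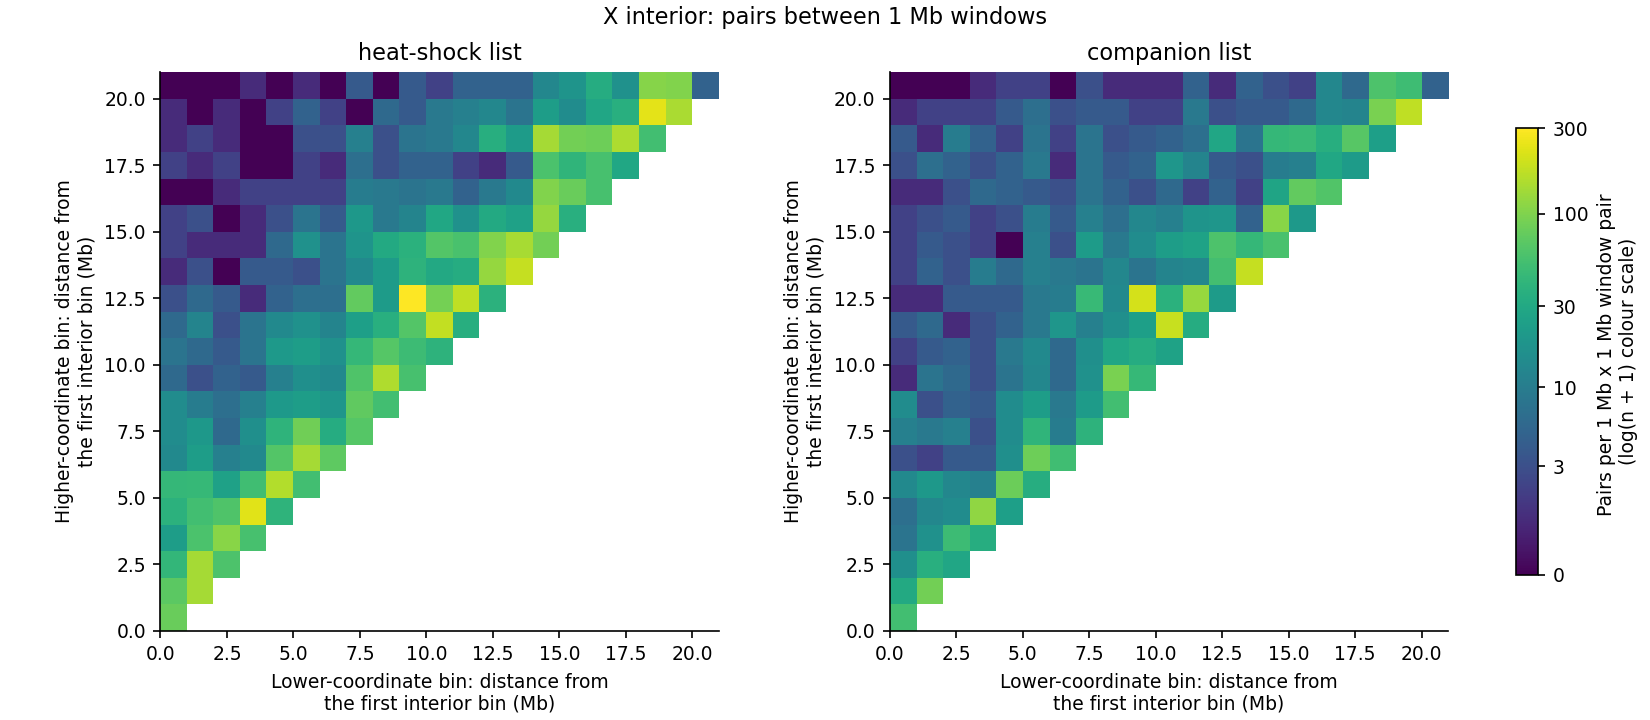
Number of pairs between every 2 windows of the X interior in the heat-shock list (left) and the companion list (right), on a logarithmic colour scale; both axes give the distance from the first interior bin in Mb, and the last window, drawn full width, is 410 kb long. The brightest field off the diagonal holds 295 heat-shock and 206 companion pairs.

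Of the interior pairs, 1480 were in both lists. They were 19.6% (18.7 to 20.5%) of the heat-shock list, against 33.9% (32.5 to 35.3%) of its companion. Over all arms, with their ends and the X included, the shares were 18.4% of heat-shock pairs and 32.2% of companion pairs, close to those of the X interior. The remaining 6069 heat-shock pairs and 2888 companion pairs were listed once. Shared pairs spanned short distances (median 0.65 Mb, 0.60 to 0.71 Mb). The medians were 1.64 Mb (1.57 to 1.70 Mb) for pairs of the heat-shock list only and 1.56 Mb (1.45 to 1.70 Mb) for pairs of the companion list only, which is within the counting error. Their upper ends differed: the 90th percentile was 5.64 Mb for the heat-shock-only pairs and 8.05 Mb for the companion-only pairs.

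Of companion pairs 68.4% (56.9 to 78.4%) were shared up to 50 kb, 55.4% (50.2 to 60.4%) over 50 to 200 kb and 43.3% (40.9 to 45.8%) over 200 kb to 1 Mb. Over 1 to 5 Mb 28.7% (26.5 to 31.0%) were shared, and beyond 5 Mb 7.95% (6.03 to 10.2%). Seen from the heat-shock list, shares were 37.5% (29.6 to 45.9%), 44.0% (39.5 to 48.5%), 29.8% (28.0 to 31.7%), 12.4% (11.3 to 13.5%) and 6.57% (4.97 to 8.48%) in the same order of distance. Strong pairs were shared more often than weak ones. Of the strongest 10% by score, 52.1% (48.5 to 55.7%) of heat-shock pairs and 56.4% (51.6 to 61.1%) of companion pairs were in the other list, against 8.89% (6.95 to 11.1%) and 17.2% (13.8 to 21.1%) of the weakest 10%. Across the 1480 shared pairs, which share bins and libraries, the scores had a Spearman rho of 0.58.

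Shared pairs also lay in groups. Another pair of the heat-shock list lay within 1 bin on both sides for 71.9% (69.5 to 74.2%) of shared pairs and for 32.7% (31.6 to 33.9%) of pairs in the heat-shock list only. In the companion list it was 29.4% (27.7 to 31.1%) for pairs listed there only. Some pairs listed once had a near match: 15.5% (14.6 to 16.4%) of the heat-shock-only pairs lay within 1 bin of a companion pair, and 22.1% (20.6 to 23.7%) of the companion-only pairs lay within 1 bin of a heat-shock pair.

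Sharing was uneven along the arm, and it was highest at a dense patch of long-range pairs. Between X:10400001-10730000 and X:13030001-13170000, stretches of 330 and 140 kb, 261 of 462 possible bin pairs (56.5%, 51.8 to 61.1%) were in the heat-shock list, against 190 (41.1%, 36.6 to 45.8%) in its companion. These pairs were 2.31 to 2.75 Mb apart. Few pairs lay around the patch. In the surrounding frame of 200 kb on every side, 16 of 3480 possible pairs (0.460%, 0.263 to 0.746%) were in the heat-shock list, against 6 (0.172%, 0.0633 to 0.375%) in its companion. Most of its pairs were in both lists, 182, which is 69.7% (63.8 to 75.2%) of the patch in the heat-shock list, against 95.8% (91.9 to 98.2%) in its companion. The bounds enclose the shared pairs linked, in steps of up to 50 kb on both sides, to the strongest shared heat-shock pair, so these shares describe the patch and are no test of it. Several of the 16 heat-shock pairs in the frame lay in the bin directly beyond the higher end of the 330 kb stretch. The frame counts thus depend in part on bounds that follow shared pairs alone.

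Within the patch 29 of the 33 lower and 12 of the 14 higher bins had a pair in the heat-shock list, against 27 and 10 in its companion, so bins with no pair cross it as empty stripes. The patch held 12.3% of all shared interior pairs, 3.46% of the heat-shock pairs and 4.35% of the companion pairs. Its pairs were strong: 60 of the 101 heat-shock pairs with a score of -10 or below and 30 of the 120 such companion pairs lay in it. The windows at either foot of the patch had the largest shared part. In X:10020001-11020000 32.9% of heat-shock pairs and 54.5% of companion pairs were shared, and 16.7% and 30.4% without the patch. In X:13020001-14020000 the shares were 32.7% and 52.1%, and 20.4% and 34.3% without it. Left out of the whole interior, the patch took the shared part to 17.8% of the heat-shock list, against 31.1% of its companion, and gave median distances of 1.33 Mb for heat-shock and 1.03 Mb for companion pairs. The patch was bounded through shared pairs and starts from the strongest of them in the heat-shock list. The lower shared parts without it and the strength of its pairs thus follow in part from its choice, and are no test of it.

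**Figure D4:**
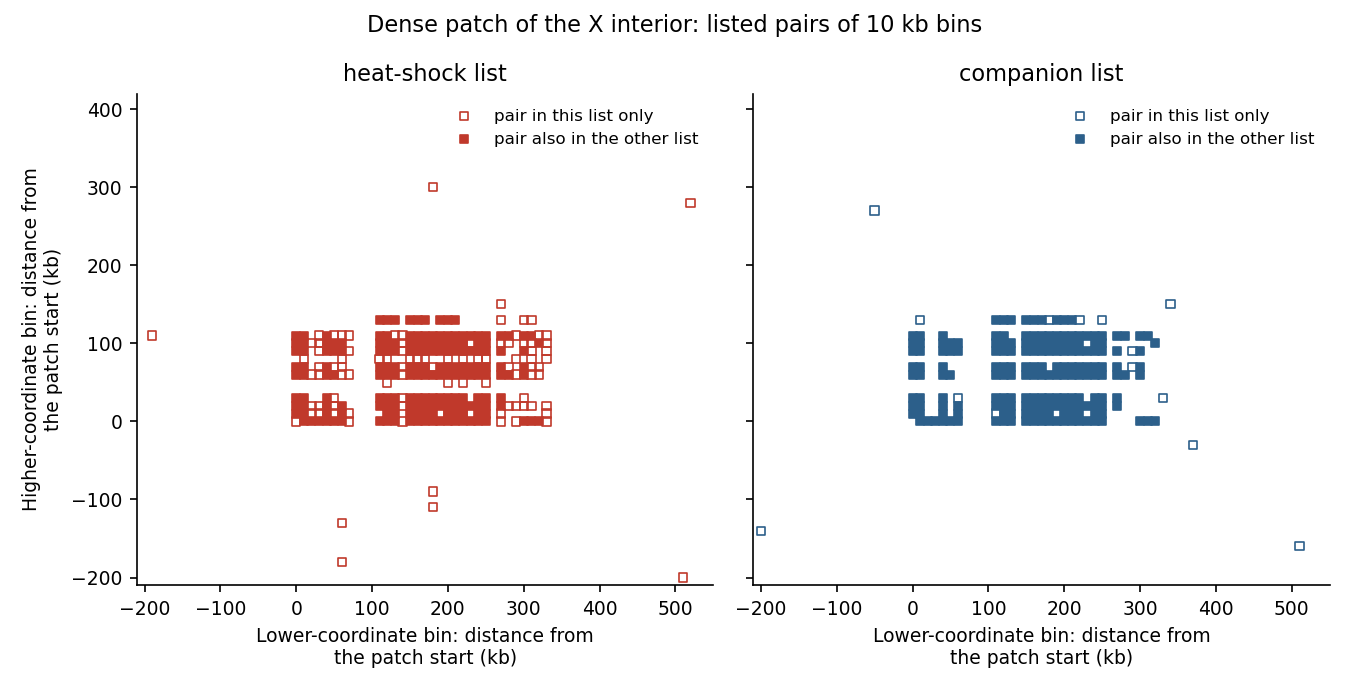
Pairs of 10 kb bins in and around the dense patch in the heat-shock list (left) and the companion list (right); axes give the distance of each bin from the first bin of either foot of the patch, in kb, and filled squares are pairs in both lists. The patch holds 261 heat-shock and 190 companion pairs, and the frame of 200 kb around it holds 16 and 6.

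In blocks of 100 kb by 100 kb, the 4 blocks over 1 Mb apart with most heat-shock pairs all lay at the patch, the densest with 66 heat-shock and 52 companion pairs. The fifth joined X:11220001-11320000 to X:12520001-12620000, 1.3 Mb apart, with 29 heat-shock and 31 companion pairs. This density was rare: of the blocks over 1 Mb apart with any pair, 65.6% in the heat-shock list, against 80.1% in its companion, held just 1. At any distance, 4440 blocks held a pair in either list. Of these, 2825 held more heat-shock pairs and 1241 more companion pairs. These numbers were not set against list length, and the other arms were not counted in this way here. The largest excess of the companion list was between X:11920001-12020000 and X:12220001-12320000, with 1 heat-shock and 24 companion pairs. The next 3 all led to X:20820001-20920000. Pairs of it with X:20420001-20520000 numbered 14 in the heat-shock list, against 31 in its companion, those with X:20520001-20620000 10 and 25, and those with X:20620001-20720000 5 and 20. All 4 of these blocks lay 0.2 to 0.4 Mb apart. Blocks were chosen after the values were seen.

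Partners were counted for each bin over interior pairs alone. Heat-shock partners outnumbered companion partners at 1167 of the 1828 bins in use (63.8%), were outnumbered at 463 (25.3%) and were equal in number at 198. Over all arms, with their ends and the X included, the shares were 70.8% and 20.5%. These counts depend on the length of the lists. With the heat-shock list cut to its strongest 4368 pairs, the length of its companion, 34.8% of the bins had more heat-shock partners and 52.0% had fewer. Across the bins, which share libraries and pairs, the numbers in the lists had a Spearman rho of 0.59. At least 2 times as many heat-shock as companion partners were found for 44.5% of bins (48.2% over all arms), and at most 0.5 times as many for 14.9% (9.4% over all arms).

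Some bins were used in a single list, 206 in the heat-shock list, against 93 in its companion, with a median of 2 partners in each. The richest of them were X:14160001-14170000, with 28 heat-shock partners and 0 companion partners, and X:3070001-3080000, with 0 and 10. The counts of such bins were not set against list length and were not made here for the other arms. A further 213 bins (10.4%) had no partner in either list. They formed 195 runs, 184 of them of a single bin, and the longest was 60 kb long at X:17380001-17440000.

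**Figure D5:**
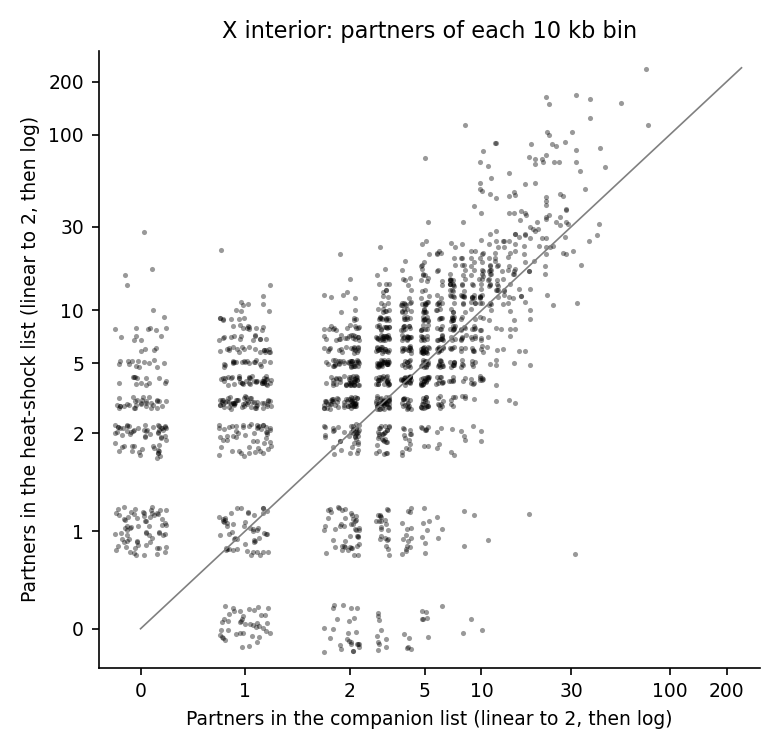
Partners of each 10 kb bin of the X interior in the heat-shock list (vertical axis) and the companion list (horizontal axis), for the 1828 bins used in either list; axes are linear up to 2 and logarithmic above, points are slightly spread, and the grey line marks equal numbers. The richest bins lie above the line, up to 237 heat-shock partners, and the companion list does not go beyond 77.

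Partners were concentrated on few bins, more so in the heat-shock list. The 20 richest bins, 0.98% of the interior, touched 31.4% (30.4 to 32.5%) of heat-shock pairs, while the companion list had 18.4% (17.2 to 19.5%) of its pairs at its own 20 richest. There were 40 bins with 50 or more partners in the heat-shock list, against 3 in its companion, which is 2.19% and 0.164% of bins in use. Over all arms, with their ends and the X included, these shares were 2.88% and 0.585%. The 20 richest heat-shock bins had 82 to 237 partners there and 8 to 77 in the companion list. That all 20 had more in the heat-shock list was fixed by their choice, since no bin had over 77 companion partners. Of the 20 richest companion bins, 7 had more partners in the companion list. The sets had 9 bins in common.

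The richest bin was X:9680001-9690000, with 237 partners in the heat-shock list, against 75 in its companion, the largest excess of the interior X at 162 partners. Its heat-shock partners lay at a median of 1.21 Mb and its companion partners at 0.50 Mb, and 57 of the 75 companion partners (76%) were also heat-shock partners. It faced mainly the centromere side, with 175 of 237 heat-shock and 66 of 75 companion partners at higher coordinates. X:2190001-2200000 came second, with 167 heat-shock and 32 companion partners, of which 19 were in both. It lay near the telomere side of the interior, and its heat-shock partners reached 13.58 Mb away. Both bins were thus rich in both lists. With so many fewer companion partners, most of their heat-shock partners were necessarily missing from the companion list.

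Next in the heat-shock list came bins further towards the centromere. X:14120001-14130000 had 164 heat-shock and 22 companion partners, and 21 of the 22 were heat-shock partners too. X:15600001-15610000 had 160 heat-shock and 38 companion partners, with 32 in both. X:16520001-16530000 had 151 heat-shock and 55 companion partners, with 36 in both. These 3 bins shared many partners with each other in the heat-shock list. X:14120001-14130000 and X:15600001-15610000 had 73 in common, 44.5% and 45.6% of their partners. X:15600001-15610000 and X:16520001-16530000 had 68 in common (42.5% and 45.0%), X:14120001-14130000 and X:16520001-16530000 had 48 (29.3% and 31.8%), and none of the 3 was paired with another of them. The richest bin, 4.44 Mb from X:14120001-14130000, had 36 partners in common with it, 15.2% of its own and 22.0% of those of X:14120001-14130000.

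X:13510001-13520000 followed with 150 heat-shock and 23 companion partners, and 73.3% of its heat-shock partners lay over 1 to 5 Mb away. X:12500001-12510000 had 124 heat-shock and 38 companion partners. X:11610001-11620000 had the steepest difference of the 10, with 114 heat-shock partners against 8 in the companion list, all 8 of them in both. The 10 were completed by X:14250001-14260000, with 113 and 77 partners, and X:15240001-15250000, with 104 and 30. Of these, X:14250001-14260000 was the richest of the companion list, where its median partner distance was 0.60 Mb, against 0.80 Mb in the heat-shock list.

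The companion list put other bins near the top. X:5150001-5160000 had 66 heat-shock and 45 companion partners, at median distances of 0.74 and 0.42 Mb. X:12570001-12580000 had 84 and 43, with 31 in both. Lower in the heat-shock list were X:6720001-6730000, with 31 heat-shock and 42 companion partners, X:12490001-12500000, with 27 and 41, and X:14870001-14880000, with 25 and 37. The bin at X:12490001-12500000 adjoins X:12500001-12510000: these neighbours had 27 and 124 partners in the heat-shock list, and 41 and 38 in the companion list.

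Bins beside rich ones had a median number of partners close to that of the whole interior, and more of them had none. Among the 40 bins beside the 20 richest heat-shock bins the median was 3 partners, against 4 over all interior bins, and the highest 45. Of the 40, 14 (35%) had none, against 15.0% of all interior bins. Of the 20 richest companion bins, X:12490001-12500000 and X:12500001-12510000 adjoin each other, and of the other 38 bins beside the 20, 11 (28.9%) had none, against 20.5% of all interior bins. The median of these 38 was 3 companion partners, against 2 over all interior bins. Both neighbours of the richest bin had 0 heat-shock partners. Rich bins were paired with one another in 15 of 190 possible pairs (7.89%, 4.49 to 12.7%) in the heat-shock list, against 11 of 190 (5.79%, 2.93 to 10.1%) in its companion. Over all interior bins 0.363% and 0.210% of possible pairs were listed, and bins with many partners enter more pairs by their choice. Of heat-shock pairs at a rich bin 17.8% were shared, against 20.4% of other heat-shock pairs. Of companion pairs at a rich bin 49.8% were shared, against 30.3% of other companion pairs. The 20 richest companion bins also had a median of 68 heat-shock partners, against 4 over all interior bins. Companion pairs at them were shorter, with a median of 0.91 Mb against 1.26 Mb for other companion pairs. Whether either bears on the sharing was not tested. Pairs at rich bins had a median score of -3.08 among heat-shock and -3.11 among companion pairs, and all other pairs one of -2.50 and -2.57.

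Where the companion list had more partners, the differences were smaller. The largest, -30, was at X:21020001-21030000, with 1 heat-shock and 31 companion partners. All 31 lay at lower coordinates, at most 1.42 Mb away, and 77.4% of them were over 1 Mb away. This bin lies close to the upper limit of the interior, and partners beyond that limit were not counted. X:14180001-14190000 had 11 heat-shock and 32 companion partners, with 3 in both. X:11430001-11440000 had 1 heat-shock and 18 companion partners, at a median distance of 7.46 Mb in the companion list, and all 18 lay at higher coordinates, in 2 windows. The other two of the 5 bins with the largest differences in this direction were X:13180001-13190000, with 18 and 34 partners, and X:12490001-12500000, given above.

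The strongest pairs of the interior X were long. Of the 100 strongest, 89 in the heat-shock list, against 91 in its companion, were over 1 Mb apart, and 80 and 59 were in both lists. Of all interior pairs 61.0% and 52.8% were over 1 Mb apart. The dense patch held 59 of the 100 strongest heat-shock pairs and 25 of the companion ones. Outside it 30 of the other 41 heat-shock and 66 of the other 75 companion pairs were over 1 Mb apart, and 34 in each list were shared. None of the 100 was 50 kb or less apart in either list, but such pairs were only 1.91% of all heat-shock and 1.81% of all companion pairs. The strongest heat-shock pair joined X:10420001-10430000 to X:13030001-13040000 in the dense patch, with a score of -49.0; its companion score was -7.98, rank 189. The second, X:10510001-10520000 with X:13160001-13170000, also in the patch, scored -40.7 in the heat-shock list, against -138 in its companion, where it was the strongest. The third joined X:8370001-8380000 to X:13280001-13290000, 4.91 Mb apart, with -38.4 in the heat-shock list, against -70.4 in its companion, where it ranked 5. The other 2 of the 5 strongest both led to X:13140001-13150000 within the patch, from X:10410001-10420000 with -37.2 and from X:10600001-10610000 with -33.9.

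The other strong companion pairs lay outside the patch, at bins with at most 18 partners there. X:11430001-11440000 with X:18900001-18910000, 7.47 Mb apart, scored -26.6 in the heat-shock list, rank 8, and -106 in the companion list. In the heat-shock list it was the only pair of the first bin, which is described above. X:12710001-12720000 with X:18590001-18600000, 5.88 Mb apart, scored -13.8 in the heat-shock list, rank 55, and -90.4 in the companion list. X:12070001-12080000 with X:16410001-16420000, 4.34 Mb apart, scored -2.72 in the heat-shock list, rank 3560, and -77.1 in the companion list. All 5 strongest pairs of each list were thus in the other list too.

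The X interior was set against the interiors of 2L, 2R, 3L and 3R, cut by the same rule. The arm is then the unit, and an exact two-sided permutation over 5 arms cannot give a p below 0.2, so none of these differences could reach 0.05. Heat-shock over companion pairs, counted beyond 10 Mb, gave a ratio of 0.62 on X and 1.09 to 1.35 on the other arms (exact permutation p = 0.2). As said above, that limit was chosen after the values were seen. Pairs over 5 Mb apart were 10.9% in the heat-shock list, against 15.5% in its companion on X, a difference of -4.66 percentage points, against -2.85 to 1.40 on the others (exact permutation p = 0.2). The median distance of heat-shock pairs was the shortest on X, 1.40 Mb, against 1.74 to 1.88 Mb (exact permutation p = 0.2), while the companion median of 1.12 Mb lay within the range of 1.11 to 1.61 Mb. Bins in use were fewest on X in the heat-shock list, 85.0% against 90.4 to 93.2% (exact permutation p = 0.2), and in the companion list, 79.5% against 80.6 to 84.8% (exact permutation p = 0.4). The X was lowest in pairs per Mb in both lists, at 369.9 against 415.8 to 553.6 in the heat-shock list (exact permutation p = 0.4) and 214 against 237 to 274 in the companion list (exact permutation p = 0.2). The ratio of all pairs, 1.73, lay inside the range of the other arms, 1.59 to 2.02. So did the densest block over 1 Mb apart, with 66 heat-shock and 52 companion pairs on X, against 23 to 73 and 17 to 65. Bins with more heat-shock than companion partners were 63.8% on X, against 67.1 to 77.7% on the others (exact permutation p = 0.4). The shared part of the companion pairs, 33.9%, was above that of every other arm, 24.1 to 32.4% (exact permutation p = 0.4). In all, 32 measures were compared in this way, and the p-values are not adjusted.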

How the data were processed

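The 2 lists of paired bins used were given by the authors with no header. Each line holds an arm, the start and end of both 10 kb bins and a score; the deposited score has no stated base, test or background model. Bowtie 0.12.7 appears per the submitters' processing notes, and how pairs were called is not stated there, so whether the reads of the 2 heat-shock libraries were pooled first is unknown. No sequence is printed, because no genome of the lists' build was used.

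Interior pairs were taken by position. Distance is that between bin starts, a bin's partners are the bins it is paired with, and a shared pair has the same 2 bins in both lists. The 95% intervals are Clopper-Pearson for shares, from order statistics for medians and exact conditional binomial for ratios of pair counts. Named were the 10 richest bins of each list, the 5 largest gains and losses, the 5 strongest pairs of each list, and the 3 highest and lowest windows. The members and rules were chosen with earlier results of these data known. Functions were tested on simulated lists. Python 3.11.15, numpy 2.4.6, pandas 2.3.3, scipy 1.17.1 and matplotlib 3.10.9 were used.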

Additional observations from a re-analysis of the deposited data

How the results depend on the processing

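No paired analysis was possible because each list stands alone, and no library could be left out in turn. The strongest 50% of each list, equal length (the heat-shock list cut to its strongest 4368 pairs), leaving out the 31 bins among the 20 richest of either list, overlap within 1 bin, and partners over the whole X were compared with the reported values; leaving out the dense patch was added after the data were seen. Ratios in the stricter and equal lists are fixed by construction and were not computed, and equal length leaves values of the companion list alone as they are. Of 30 alternative values, 6 stayed within the reported interval, 23 left it and 1 turned round. For all of them the cause was not tested.

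The value that turned round was the share of bins with more heat-shock partners: at equal length 34.8%, below the 52.0% with fewer. It was 58.9% in the stricter lists and 54.7% without rich bins. The ratio of pairs was 1.43 without rich bins. The median distance of heat-shock pairs stayed the higher value, but with overlapping intervals in the stricter lists and without rich bins. Stricter lists gave 1.52 Mb (1.45 to 1.61) for heat-shock and 1.40 Mb (1.30 to 1.54) for companion pairs. Leaving out rich bins gave 1.49 Mb (1.41 to 1.57) and 1.32 Mb (1.25 to 1.44). The intervals stayed apart without the patch, at 1.33 Mb (1.28 to 1.37) and 1.03 Mb (0.97 to 1.10). They also did at equal length, where heat-shock pairs had 1.46 Mb (1.39 to 1.53).

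The shared part was 32.0% of the heat-shock and 48.5% of the companion list within 1 bin, 25.5% of each at equal length, and 17.8% and 31.1% without the patch, which was bounded through shared pairs. It was 28.0% of the companion list without rich bins. Pairs touching the 20 richest bins made up 43.9% of the heat-shock and 25.6% of the companion list when stricter, 26.3% and 13.8% for the next 20 once the rich bins were left out, and, in the heat-shock list, 41.6% at equal length and 29.8% over the whole X. With the depth unknown, a missing pair may still be a contact.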
